A study of Mus musculus with 40 samples.

Results

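The genes described here are the mouse ubiquitin-conjugating enzymes, or E2s, on an Affymetrix array read in 1-cell and 2-cell embryos. Members were all genes whose symbol starts with Ube2 and that had a probe set listed with exactly 1 gene; each gene was represented by its probe set with the highest mean over all arrays. The rule found 33 genes among the 18193 with such a probe set, read by 81 Ube2 probe sets, and 30 of the 33 were above the overall median log2 value of 5.34 on at least 4 arrays and were tested among 14880 genes. The 3 members below that filter were Ube2d2b, a gene of the Ube2d family, Ube2l6, the E2 for the interferon-induced modifier ISG15, and Ube2ql1. Ube2l3 was listed only on probe sets shared with other genes. The label holds for the enzymes as a family with 2 exceptions: Ube2cbp is an older symbol of Ube3d, a ubiquitin ligase, and Ube2d-ps is annotated as a long noncoding RNA.

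An E2 takes activated ubiquitin from an E1 enzyme onto its catalytic cysteine and, together with an E3 ligase that holds the substrate, passes it on. Some E2s place the first ubiquitin, others extend chains, and the lysine through which a chain is linked sets its use, with K48 and K11 chains leading to the proteasome and K63 chains serving in DNA repair and signalling. In the mouse, proteins and RNAs stored in the egg are cleared and the embryonic genome becomes active by the 2-cell stage, and ubiquitin-dependent proteolysis takes part in removing the stored proteins.

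The embryos were of B6D2 background and formed 10 groups, 5 at the 2-cell stage and 5 at the 1-cell stage. At each stage there were embryos made by somatic cell nuclear transfer (SCNT) with female cumulus cells as donors, cultured with and without α-amanitin, which blocks transcription by RNA polymerase II; parthenogenetic embryos (PARTHENOGENIC in the labels); and fertilized embryos cultured with and without α-amanitin. Each group had 4 arrays, except that 1 of the untreated SCNT 1-cell arrays was empty, which left 3 there and 39 of 40 in all. Most SCNT labels name the medium MEMa, and KSOM is named for fertilized embryos only, so medium and origin cannot be told apart. The labels spell out amanitin for most SCNT samples titled with the letter A; for fertilized embryos the treatment rests on the same letter and on the study's design text. Nothing says that replicates came from separate cultures, so the p-values measure the spread between these samples, which may be technical. In pooled embryos, fewer cells and less RNA per cell cannot be told apart.

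Values are log2 of the deposited intensity plus 6.9, quantile normalized, and a gene was called at a limma adjusted p under 0.05. Replicate arrays of a group correlated with each other at r = 0.9396 to 0.9797 over all tested genes. The mean level of 4 markers of the 2-cell embryo averaged 11.37 to 11.98 on the untreated 2-cell arrays, against 4.16 to 6.17 on all others, and 8 oocyte markers averaged 8.18 to 9.41 on untreated 2-cell arrays, against 9.65 to 11.3 on the others. Markers of cumulus cells (8 measured, 4.36 to 5.96), sperm (5 measured, 3.97 to 5.26) and blood (3 measured, 3.61 to 4.69) had low means as lists, though single genes were higher: Col1a2 was above the overall median in all 10 groups (group means of 5.91 to 7.07), Ptgs2 reached 6.54 and the sperm gene Prm2 6.55. The cumulus gene Gja1 was highest, at 11.21 in SCNT, 9.27 in parthenogenetic and 10.71 in fertilized untreated 2-cell embryos. The 18S control probe sets moved with stage and drug. Their mean as deposited was 10.81, 11.22 and 10.25 in untreated SCNT, parthenogenetic and fertilized 2-cell embryos, against 12.72 to 13.25 in the other groups. The poly(A) spike controls were at 3.65 and 3.54 in amanitin-treated and untreated SCNT 1-cell embryos, against 5.47 to 8.88 elsewhere, and the hybridization controls were at 10.55 in amanitin-treated SCNT 2-cell embryos, against 9.16 to 9.71 elsewhere. Their part in the results below was not tested.

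Between the stages, E2 genes moved both ways. In SCNT embryos 11 of the 30 tested members were higher and 14 lower at the 2-cell stage, against a background of 60.8% of all tested genes called, 26.2% higher and 34.5% lower; in parthenogenetic embryos 7 were higher and 13 lower (background 49.2%, 21.7% higher and 27.5% lower), and in fertilized embryos 10 were higher and 13 lower (background 60.1%, 25.8% higher and 34.3% lower). The members' median difference was −0.19, −0.20 and −0.24 in SCNT, parthenogenetic and fertilized embryos, and that of all tested genes was −0.14, −0.04 and −0.13. The SCNT and fertilized comparisons share no arrays: 9 members were called higher in both, namely Ube2c, Ube2e1, Ube2e3, Ube2h, Ube2j2, Ube2o, Ube2v1, Ube2v2 and Ube2z, 13 were called lower in both, and 0 were called in opposite directions. Over all 14880 tested genes, 20.3% were called higher in both and 28% lower in both. Another 0.578% were higher in fertilized but lower in SCNT embryos, and 0.625% the reverse. Between the parthenogenetic and fertilized comparisons 6 were higher and 10 lower in both, against 15.4% and 22% of all tested genes. Ube2e1 and Ube2e3 were lower in parthenogenetic but higher in fertilized embryos, as were 1.34% of all tested genes. These directions are those of the brightest probe set of each gene. Among called members with another passing probe set, some other set had the opposite sign, at any size, in 11 of 18 in SCNT, 5 of 12 in parthenogenetic and 6 of 16 in fertilized embryos; Ube2h, for example, ranged from −1.27 to −0.39 in SCNT and from −0.61 to −0.47 in fertilized embryos on its other sets. With arrays centred on their medians in place of quantile normalization the higher and lower counts became 7 and 14 in SCNT, 5 and 17 in parthenogenetic and 7 and 15 in fertilized embryos. The median over all genes moved with centring, to −0.27, −0.26 and −0.19. Under centring the rises of Ube2c, Ube2v2 and Ube2s in parthenogenetic embryos were 0.43, 0.40 and 0.54.

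**Figure D1:**
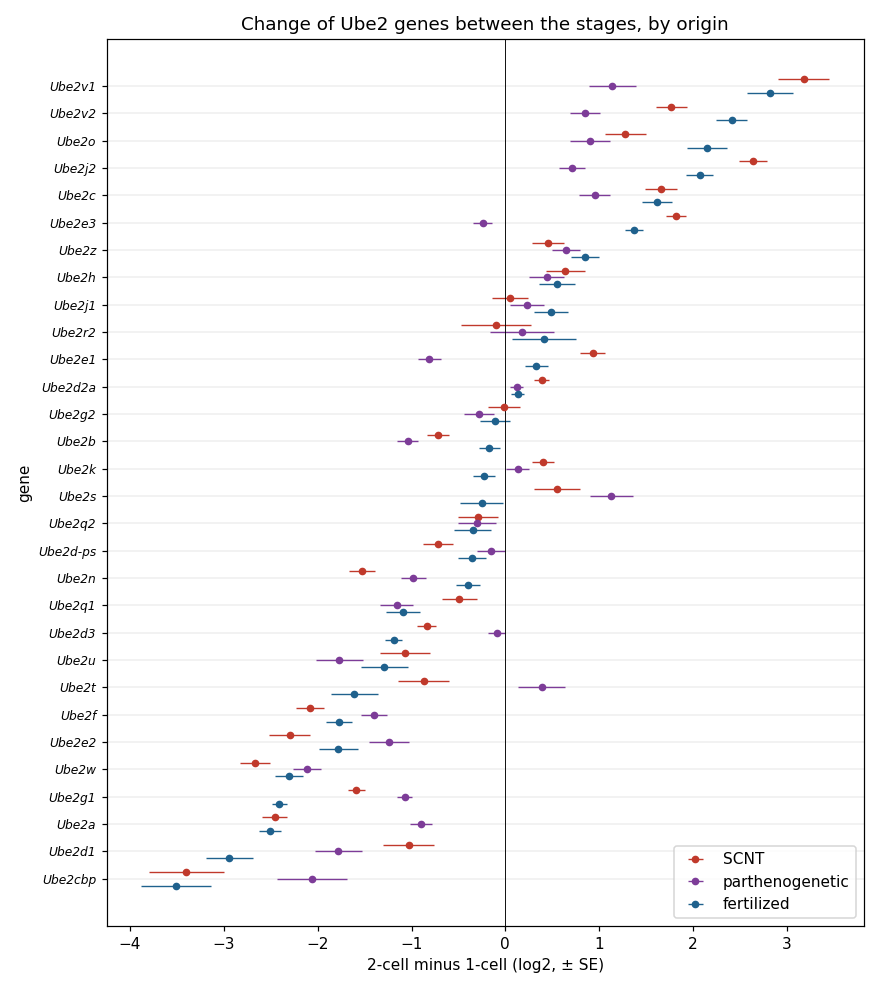
Change of the 30 tested Ube2 genes between the stages. The x axis is the 2-cell minus 1-cell difference in log2 units with its SE, and each gene has a point for SCNT, parthenogenetic and fertilized embryos; Ube2v1 has the largest increase in SCNT (3.18) and fertilized embryos (2.82), and for Ube2e3 the parthenogenetic point (−0.24) lies on the other side of 0.

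Amanitin at the 2-cell stage moved most members as well. With the drug, 14 members were higher and 12 lower in SCNT embryos (background 69.3%, 39.7% higher and 29.6% lower), and 15 were higher and 10 lower in fertilized embryos (background 64.4%, 38.6% higher and 25.7% lower). The members' median difference was 0.14 in SCNT and 0.43 in fertilized embryos, and that of all tested genes 0.28 in both. These comparisons share no arrays either: 11 members were higher in both and 10 were lower in both, against 29.1% and 21.1% of all tested genes. Ube2d1 and Ube2s were lower in SCNT but higher in fertilized embryos, as were 2.72% of all tested genes. Some other probe set had the opposite sign in 9 of 17 called members with another passing set in SCNT and in 7 of 17 in fertilized embryos. With median centring 13 members were higher and 14 lower in SCNT, and 16 and 9 in fertilized embryos. With the next brightest probe set the counts were 10 and 13 in SCNT, and 13 and 8 in fertilized embryos. The members' median was then −0.46 in SCNT and 0.25 in fertilized embryos. The interaction, the amanitin effect in SCNT minus that in fertilized embryos, was called for 21 members, 7 higher and 14 lower (background 38.9%, 17.8% higher and 21.1% lower). For the interaction, some other probe set had the opposite sign in 6 of 15 called members with another passing set.

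**Figure D2:**
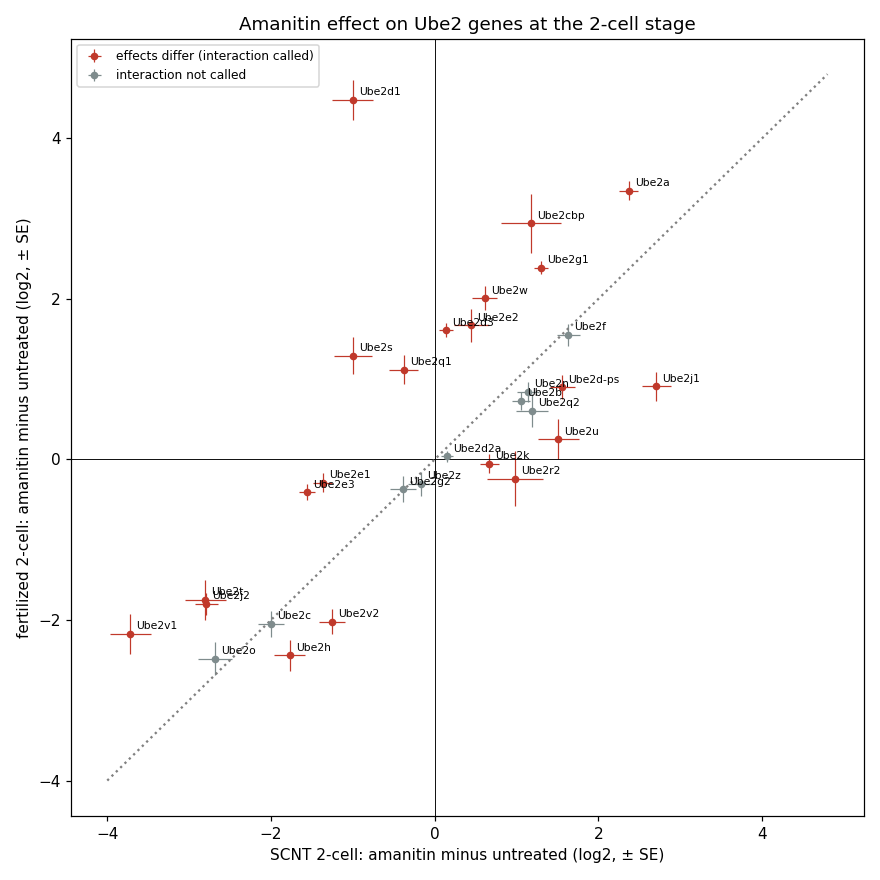
Amanitin effect on the 30 tested Ube2 genes at the 2-cell stage. The x axis is the effect in SCNT and the y axis the effect in fertilized embryos, in log2 units with SE; the dotted line marks equal effects and red points have a called interaction. Ube2d1 lies farthest from the line, at −1.0 in SCNT and 4.48 in fertilized embryos.

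With transcription blocked at both stages, the 2-cell against 1-cell difference was called for 22 members in SCNT embryos, 8 higher and 14 lower (background 55.5%, 25.7% higher and 29.8% lower), and for 17 in fertilized embryos, 14 higher and 3 lower (background 40.7%, 21.6% higher and 19.1% lower). The median difference of the members was −0.30 in SCNT and 0.25 in fertilized embryos, against 0.01 and 0.11 over all genes. The split depended on the scaling: with median centring it was 5 higher and 18 lower in SCNT and 3 higher and 12 lower in fertilized embryos, and with the values as deposited 13 higher and 6 lower in fertilized embryos. The median over all genes moved with it, to −0.20 in SCNT and −0.15 in fertilized embryos with centring and to 0.20 and 0.32 as deposited. Ube2d1, Ube2d3 and Ube2s were lower in SCNT and higher in fertilized embryos, as were 3.16% of all tested genes, and some other probe sets of Ube2d3 had the opposite sign; under median centring the increase of Ube2d1 in fertilized embryos was 0.62 with an adjusted p of 0.056.

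At the 1-cell stage few members differed with amanitin. In SCNT embryos 0 of 30 members were called by limma (background 0.43%, 0.0806% higher and 0.349% lower), and 0 were called under any of the alternative settings. An unadjusted limma p under 0.05 was found there for 3 members and for 1221 of the 14880 tested genes. In fertilized embryos Ube2h and Ube2e3 were higher and Ube2g1 lower (background 5.99%, 3.57% higher and 2.43% lower), by 0.95 (SE 0.19, adjusted p = 0.00167), 0.37 (SE 0.10, adjusted p = 0.0173) and −0.39 (SE 0.08, adjusted p = 0.00231). On the next brightest probe set the difference was 0.46 for Ube2e3 (adjusted p = 0.582) and −0.04 for Ube2g1 (adjusted p = 0.942). The Ube2e3 call was lost without any 1 of 5 libraries, and the Ube2g1 difference was −0.09 under median centring (adjusted p = 0.67). Median centring gave 6 higher and 0 lower there and the values as deposited 2 higher and 2 lower, and 5 were called without fertilized 1-cell replicate 1. The median over all genes moved from 0.0 to 0.18 with centring and to −0.14 as deposited.

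Between origins the 2-cell embryos differed more than the 1-cell embryos. Among untreated 2-cell embryos, 13 members were higher and 2 lower in SCNT than in fertilized embryos (background 30.6%, 14.3% higher and 16.3% lower), with a median of 0.17 against −0.05 over all genes. Median centring gave 5 higher and 3 lower, and the values as deposited 9 higher and 3 lower. The median over all genes was −0.11 with centring and 0.05 as deposited. Parthenogenetic 2-cell embryos had 13 higher and 9 lower than fertilized ones (background 47.4%, 26.4% higher and 21% lower). Here median centring gave 10 higher and 10 lower, and the values as deposited 14 higher and 9 lower. With the next brightest probe set 11 were higher and 7 lower, and the members' median was −0.17 in place of 0.18. With amanitin at the 2-cell stage, 7 were higher and 12 lower in SCNT than in fertilized embryos (background 43.3%, 18.6% higher and 24.7% lower). The untreated and the amanitin comparison of SCNT with fertilized embryos share no arrays, and 8 members called higher in the untreated comparison were called lower in the amanitin one: Ube2a, Ube2d1, Ube2d3, Ube2e1, Ube2e3, Ube2j2, Ube2q1 and Ube2w. Of all tested genes 4.53% did the same. With median centring only 5 members in all were called higher in the untreated comparison, so not all 8 changed sides under that setting. Some other probe set of Ube2d3 and Ube2e3 had the opposite sign in both comparisons, and of Ube2e1 and Ube2j2 in the amanitin one.

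Among 1-cell embryos, 4 members were higher and 0 lower in SCNT than in fertilized embryos (background 5.56%, 2.88% higher and 2.69% lower), 10 were higher and 2 lower in parthenogenetic than in fertilized embryos (background 20.4%, 10.9% higher and 9.55% lower), and with amanitin 9 were higher and 4 lower in SCNT than in fertilized embryos (background 21.6%, 10.2% higher and 11.4% lower), a split that median centring turned to 1 higher and 7 lower. The 4 were Ube2w (0.82, SE 0.16, adjusted p = 0.000828), Ube2v2 (0.66, SE 0.17, adjusted p = 0.0154), Ube2n (0.57, SE 0.14, adjusted p = 0.00716) and Ube2b (0.40, SE 0.12, adjusted p = 0.0432). Ube2v2 lost its call without SCNT 1-cell replicate 1 or 4, Ube2n without replicate 4, and Ube2b without either of those or without fertilized 1-cell replicate 2 or 3. The count of 4 became 8 without fertilized 1-cell replicate 1, 2 without SCNT 1-cell replicate 1 and 1 without SCNT 1-cell replicate 4. With the next brightest probe set the difference was 0.16 for Ube2w (adjusted p = 0.826), −0.65 for Ube2n (adjusted p = 0.166) and −0.50 for Ube2b (adjusted p = 0.141), and the mean over the probe sets of Ube2w gave 0.29 (adjusted p = 0.241). Among called members with another passing set, some other set had the opposite sign in 3 of 3 in SCNT and 5 of 10 in parthenogenetic embryos. With amanitin it had the opposite sign in 7 of 10 in SCNT embryos. There the split was 1 higher and 4 lower with probe sets averaged, and 2 higher and 7 lower with the next brightest set. With median centring the median over all genes moved there from 0.01 to −0.13, and that of the members from 0.20 to −0.04. The SCNT 1-cell groups are also those with the low poly(A) controls, whose part in these differences was not tested.

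**Figure D3:**
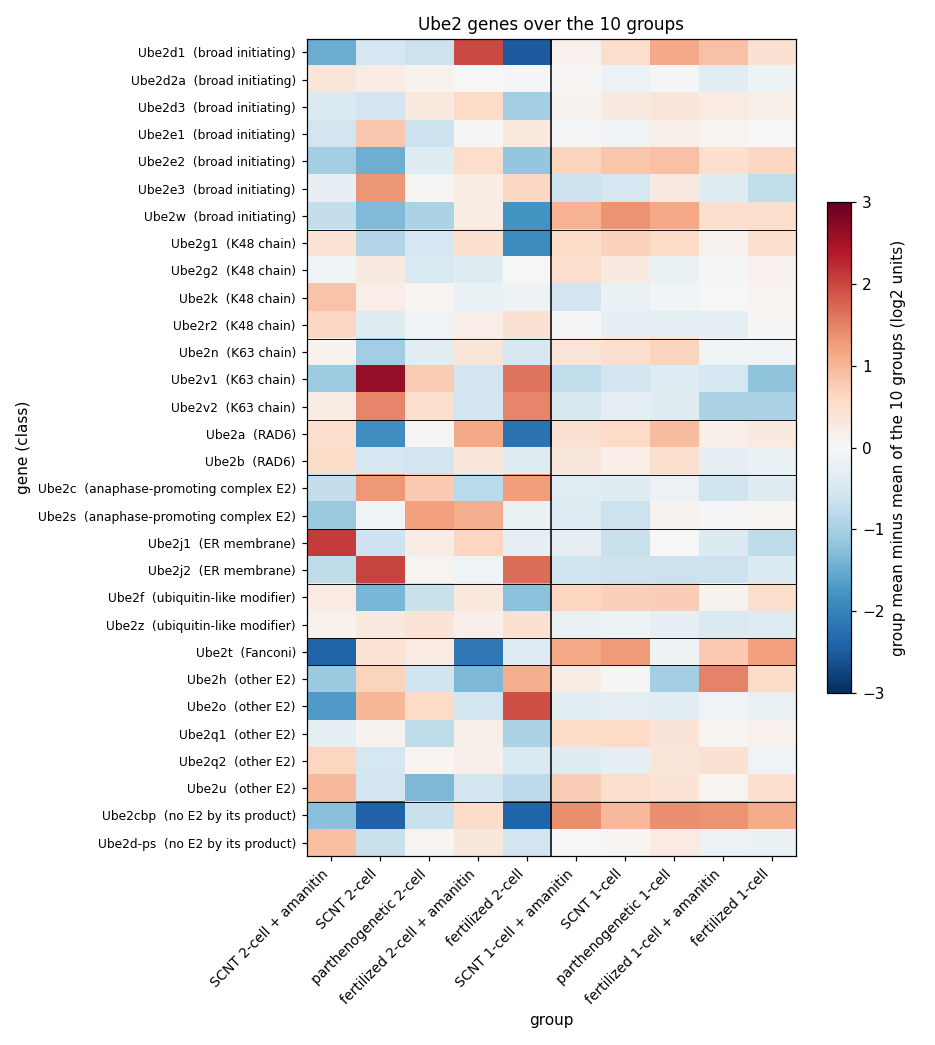
Group means of the 30 tested Ube2 genes over the 10 groups, grouped by role. Colour is the group mean minus that gene's mean over the groups in log2 units (red higher, blue lower, ends at −3 and 3); the vertical line parts the 2-cell groups on the left from the 1-cell groups. Ube2v1, Ube2v2, Ube2c, Ube2j2 and Ube2o are red in untreated SCNT and fertilized 2-cell embryos and Ube2a, Ube2w, Ube2e2 and Ube2cbp are blue there.

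The K63 chain builders are Ube2n, which carries the catalytic cysteine, and Ube2v1 and Ube2v2, which lack one and bind Ube2n so that it links ubiquitin through K63. Ube2v1 read 10.05, 9.62, 10.05 and 10.04 on the untreated SCNT 2-cell arrays, against 6.77, 6.79 and 6.70 on the SCNT 1-cell arrays. It read 8.88, 8.99, 8.97 and 8.77 on the fertilized 2-cell arrays, against 6.63, 6.0, 5.58 and 6.14 on the fertilized 1-cell arrays. Every untreated 2-cell array was above every 1-cell array of its origin. The rise was 3.18 in SCNT (SE 0.27, adjusted p = 1.42e-13), 1.14 in parthenogenetic (SE 0.25, adjusted p = 0.000154) and 2.82 in fertilized embryos (SE 0.25, adjusted p = 4.73e-13), and it was smaller in parthenogenetic than in fertilized embryos by an interaction of −1.68 (SE 0.35, adjusted p = 0.000163). With amanitin the 2-cell values were 6.15, 7.23, 6.56 and 4.94 in SCNT and 6.50, 6.74, 6.73 and 6.95 in fertilized embryos, so that no treated array overlapped the untreated ones of its origin. The amanitin difference was −3.72 in SCNT (SE 0.25, adjusted p = 8.87e-17) and −2.17 in fertilized embryos (SE 0.25, adjusted p = 4.07e-10), and the interaction was −1.55 (SE 0.35, adjusted p = 0.000389). The other Ube2v1 probe set moved the same way in each of these.

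Ube2v2 followed the same course at the stage change. It read 9.36, 9.67, 9.96 and 9.96 on SCNT 2-cell arrays, against 8.19, 7.78 and 7.93 on SCNT 1-cell arrays, and 9.62, 10.05, 9.91 and 9.29 on fertilized 2-cell arrays, against 7.19, 7.31, 7.48 and 7.25 on fertilized 1-cell arrays. The groups did not overlap, and the rise was 1.77 in SCNT (SE 0.17, adjusted p = 1.16e-11), 0.85 in parthenogenetic (SE 0.16, adjusted p = 2.4e-05) and 2.41 in fertilized embryos (SE 0.16, adjusted p = 1.67e-16). With amanitin it was lower, with differences of −1.25 in SCNT and −2.02 in fertilized embryos, and the interaction of 0.77 (SE 0.23, adjusted p = 0.00625) for Ube2v2 had the sign opposite to that of Ube2v1.

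Their catalytic partner went the other way. Ube2n read 8.75, 9.21, 8.84 and 9.12 on SCNT 2-cell arrays, against 10.48, 10.40 and 10.65 on SCNT 1-cell arrays, with no overlap; the difference was −1.53 (SE 0.14, adjusted p = 7.57e-13). It was −0.98 in parthenogenetic (SE 0.13, adjusted p = 1.58e-08) and −0.40 in fertilized embryos (SE 0.13, adjusted p = 0.00607), where 1 of the 2-cell arrays, at 9.97, overlapped the 1-cell values of 9.74 to 10.22. With amanitin Ube2n was higher at the 2-cell stage by 1.14 in SCNT and 0.84 in fertilized embryos (SE 0.13 in both, adjusted p = 1.83e-10 and 2.21e-07). On its other probe set the stage differences were −0.30 in SCNT, −0.04 in parthenogenetic and −0.58 in fertilized embryos. The interaction of its stage change, −1.13 in SCNT minus fertilized, was 0.28 (adjusted p = 0.669) with its other probe set.

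**Figure D4:**
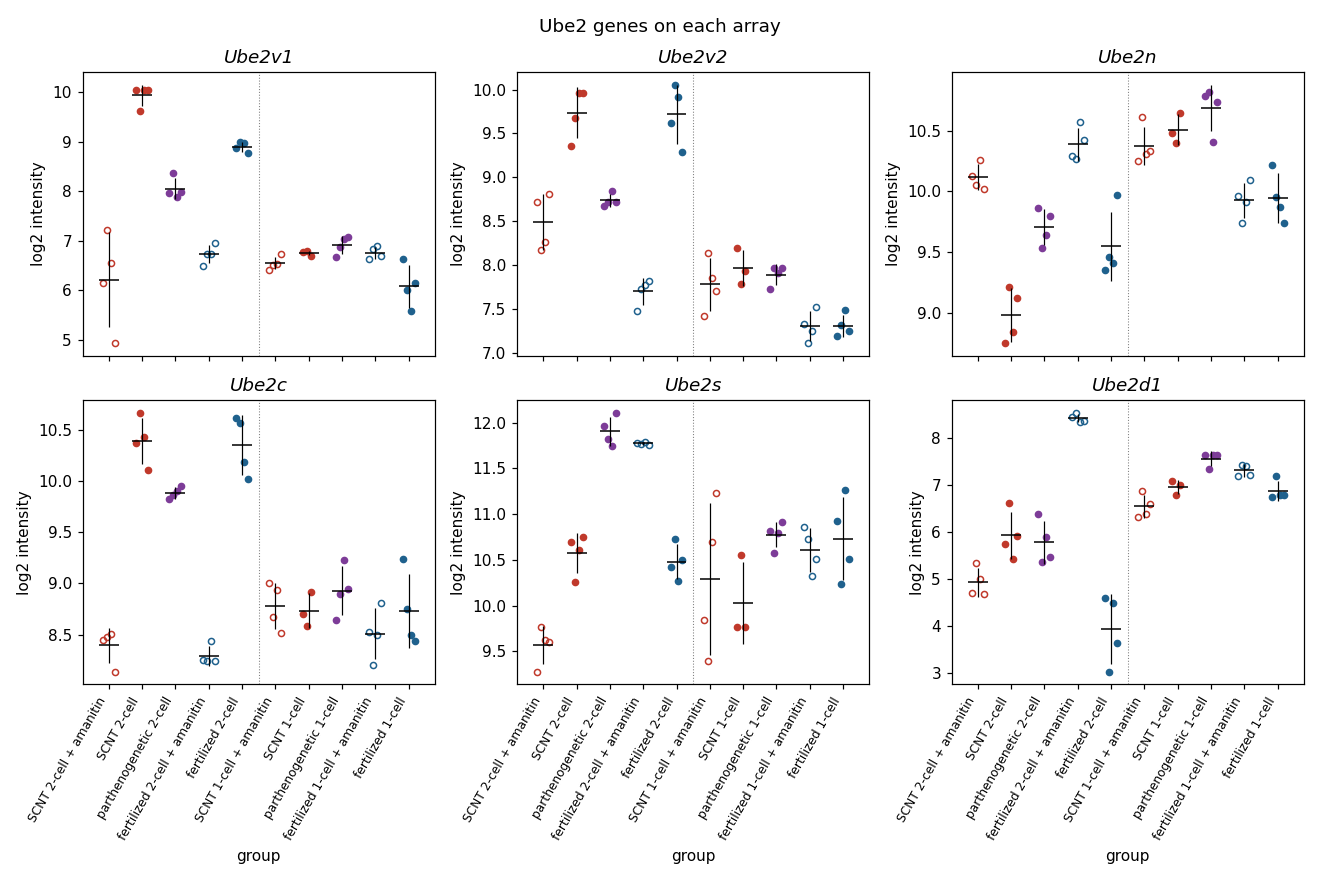
Log2 intensity of 6 Ube2 genes on each of the 39 arrays. Filled points are untreated and open points amanitin-treated embryos, red SCNT, purple parthenogenetic and blue fertilized; the bars give the mean and SD, and the dotted line parts the 2-cell groups on the left from the 1-cell groups. For Ube2v1, Ube2v2 and Ube2c the untreated 2-cell arrays lie above the 1-cell arrays of the same origin, and for Ube2d1 the fertilized 2-cell groups lie at the bottom without and at the top with amanitin.

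The E2s of the anaphase-promoting complex act at exit from mitosis: Ube2c places the first ubiquitins on cyclin B and securin, and Ube2s extends them through K11. Ube2c read 10.37, 10.66, 10.43 and 10.11 on SCNT 2-cell arrays, against 8.70, 8.58 and 8.92 on SCNT 1-cell arrays, and 10.62, 10.57, 10.19 and 10.02 on fertilized 2-cell arrays, against 9.24, 8.75, 8.5 and 8.44 on fertilized 1-cell arrays. No 2-cell array overlapped the 1-cell arrays of its origin; the rise was 1.66 in SCNT (SE 0.17, adjusted p = 2.36e-11), 0.95 in parthenogenetic (SE 0.16, adjusted p = 1.87e-06) and 1.62 in fertilized embryos (SE 0.16, adjusted p = 5.83e-12). With amanitin Ube2c was at 8.45, 8.48, 8.51 and 8.14 in SCNT 2-cell embryos and at 8.25, 8.24, 8.44 and 8.24 in fertilized 2-cell embryos, lower than untreated by −2.00 and −2.05. The interaction of 0.06 was not called. Ube2c is read by 1 probe set.

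Ube2s parted by origin. It read 9.28, 9.77, 9.63 and 9.60 on amanitin-treated, against 10.69, 10.26, 10.61 and 10.75 on untreated SCNT 2-cell arrays, a difference of −1.0 with the drug (SE 0.23, adjusted p = 0.000163). It read 11.78, 11.77, 11.79 and 11.75 on amanitin-treated, against 10.42, 10.73, 10.27 and 10.50 on untreated fertilized 2-cell arrays, a difference of 1.29 (SE 0.23, adjusted p = 4.27e-06). The groups did not overlap in either origin, and the interaction was −2.30 (SE 0.32, adjusted p = 2.06e-07). Parthenogenetic 2-cell embryos, at 11.96, 11.82, 11.74 and 12.10, were above both untreated groups and above their own 1-cell arrays at 10.82, 10.58, 10.79 and 10.91 (1.13, SE 0.23, adjusted p = 6.08e-05). In SCNT and fertilized embryos the stage difference of Ube2s was 0.55 and −0.25 and was not called.

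The upstream sequences of Ube2c and Ube2v1, which were higher at the 2-cell stage, and of Ube2d1, which had the largest difference between origins, are shown because these 3 genes carry the main contrasts. Each is the 250 bases before the RefSeq start of the gene in GRCm38.p6, written 5′ to 3′ along the gene: Ube2c at chr2:164769679-164769928 on the plus strand, Ube2v1 at chr2:167632006-167632255 on the minus strand and Ube2d1 at chr10:71285263-71285512 on the minus strand. Capitals mark exact matches, on either strand, to the CCAAT box CCAAT, the ETS site CCGGAA, the SP1 box GGGCGG or the cell cycle homology region TTTGAA, the 4 of 9 searched motifs that matched in these windows.
Ube2c: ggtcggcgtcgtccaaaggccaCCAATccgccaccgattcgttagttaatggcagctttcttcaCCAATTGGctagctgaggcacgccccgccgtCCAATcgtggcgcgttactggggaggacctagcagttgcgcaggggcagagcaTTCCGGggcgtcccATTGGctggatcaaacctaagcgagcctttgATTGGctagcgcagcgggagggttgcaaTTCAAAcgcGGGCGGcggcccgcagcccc
Ube2v1: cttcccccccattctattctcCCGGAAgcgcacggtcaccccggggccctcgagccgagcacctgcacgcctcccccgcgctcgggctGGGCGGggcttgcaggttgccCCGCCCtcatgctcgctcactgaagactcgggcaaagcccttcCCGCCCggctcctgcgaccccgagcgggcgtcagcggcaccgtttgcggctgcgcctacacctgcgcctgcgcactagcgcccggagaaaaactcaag
Ube2d1: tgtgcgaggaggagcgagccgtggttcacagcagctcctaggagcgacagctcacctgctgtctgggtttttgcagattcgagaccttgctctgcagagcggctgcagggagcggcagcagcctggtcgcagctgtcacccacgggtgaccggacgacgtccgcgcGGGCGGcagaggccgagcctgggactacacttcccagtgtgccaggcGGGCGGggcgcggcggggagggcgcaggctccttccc
The Ube2c window held CCAAT boxes, of which a pair on opposite strands overlapped, besides an ETS site, an SP1 box and the cell cycle homology region; the Ube2v1 window held an ETS site and SP1 boxes, and the Ube2d1 window held SP1 boxes. Over all 27025 promoters of the table, windows with a CCAAT box made up 34.5%, with the ETS site 12.3%, with the SP1 box 33.0% and with TTTGAA 16.3%. Of the 24 tested members with a promoter in the table, 6 had the CCAAT box, 7 the ETS site, 17 the SP1 box and 3 TTTGAA (Ube2c, Ube2f and Ube2z). The TATA box TATAAA was in 13.0% of all promoters and 1 member (Ube2s), the E-box CACGTG in 6.04% and 2 members, and the CRE TGACGTCA in 1.6% and 1 member; the palindromic NRF1 site (0.777%) and the paired-like homeobox site GGATTA (6.37%) were in 0 members. A match describes the letters of the window and no more.

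The broad initiating E2s place ubiquitin with many RING ligases. Among them Ube2d1 stood apart. It read 4.69, 5.33, 5.0 and 4.68 on amanitin-treated, against 5.74, 6.61, 5.43 and 5.92 on untreated SCNT 2-cell arrays. It read 8.44, 8.52, 8.34 and 8.35 on amanitin-treated, against 4.59, 3.03, 4.49 and 3.63 on untreated fertilized 2-cell arrays. The drug groups did not overlap in either origin, and they lay in opposite orders: the difference was −1.0 in SCNT (SE 0.25, adjusted p = 0.000568) and 4.48 in fertilized embryos (SE 0.25, adjusted p = 8.68e-19), with an interaction of −5.48 (SE 0.36, adjusted p = 1.56e-15). The 4 amanitin-treated SCNT and the 4 untreated fertilized 2-cell arrays were all below the overall median of 5.34, so the size of differences that involve these groups depended on the added constant: the interaction ran from −6.33 to −4.25 over the constants tried. On the 1-cell arrays Ube2d1 read 7.09, 6.79 and 6.99 in SCNT, 7.64, 7.33, 7.63 and 7.64 in parthenogenetic and 6.74, 7.19, 6.78 and 6.79 in fertilized embryos, above the untreated 2-cell arrays of each origin. The stage difference was −1.03 in SCNT (SE 0.27, adjusted p = 0.00118), −1.78 in parthenogenetic (SE 0.25, adjusted p = 1.27e-07) and −2.94 in fertilized embryos (SE 0.25, adjusted p = 2.81e-13). Among untreated 2-cell embryos Ube2d1 was higher than in fertilized ones by 1.99 in SCNT (SE 0.25, adjusted p = 4.24e-08) and 1.84 in parthenogenetic embryos; with a constant at the 40th percentile these became 1.29 and 1.18. Ube2d1 is read by 1 probe set.

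The other Ube2d paralogues tested depended on the probe set. Ube2d2a read between 12.32 and 13.09 on all 39 arrays; it was called higher at the 2-cell stage in SCNT embryos, by 0.39 (SE 0.08, adjusted p = 6.22e-05), while the differences in parthenogenetic and fertilized embryos were 0.12 and 0.13. Its 3 other passing probe sets gave larger stage changes, 0.43 to 1.51 in SCNT, 0.28 to 0.37 in parthenogenetic and 0.57 to 1.23 in fertilized embryos. Ube2d3 was lower at the 2-cell stage by −0.84 in SCNT (SE 0.10, adjusted p = 4.98e-10) and −1.19 in fertilized embryos (SE 0.09, adjusted p = 4.09e-15), and its difference in parthenogenetic embryos, −0.09, was not called. It was higher with amanitin in fertilized 2-cell embryos, at 12.69, 12.84, 13.06 and 13.01 against 11.11, 11.10, 11.48 and 11.48 untreated (1.61, SE 0.09, adjusted p = 4.04e-19), but not called in SCNT (0.14). The interaction of Ube2d3 was −1.47, and its 6 other passing probe sets ranged from −2.47 to 1.24. They ranged from −2.45 to 0.48 for the SCNT stage change and from −1.47 to 2.69 for amanitin in SCNT.

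Of the Ube2e enzymes, which carry a long N-terminal extension, Ube2e3 read 11.92, 12.05, 12.05 and 11.94 on SCNT 2-cell arrays, against 10.13, 10.06 and 10.33 on SCNT 1-cell arrays, a rise of 1.82 (SE 0.11, adjusted p = 4.09e-18). In parthenogenetic embryos it read 10.74, 10.46, 10.79 and 10.80 at the 2-cell and 10.84, 10.97, 10.95 and 10.99 at the 1-cell stage, and fell by 0.24 on the log2 scale (SE 0.10, adjusted p = 0.0394). In fertilized embryos it read 11.32, 11.17, 11.33 and 11.38, against 10.31, 9.76, 9.89 and 9.77, a rise of 1.37 (SE 0.10, adjusted p = 1.97e-15). The stage groups overlapped in none of the origins, and the parthenogenetic stage change was smaller than the fertilized one by −1.61 (SE 0.14, adjusted p = 5.85e-12). Ube2e1 had the same signs, at 0.93 in SCNT, −0.81 in parthenogenetic and 0.33 in fertilized embryos (adjusted p = 3e-08, 1.88e-07 and 0.0143). Both were lower with amanitin at the 2-cell stage, by −1.56 and −1.37 in SCNT and by −0.41 and −0.29 in fertilized embryos, with interactions of −1.16 and −1.08. The other Ube2e3 probe set was dim, with group means of 4.43 to 5.15, below the overall median, and gave −0.03 for the SCNT stage change, 0.25 for amanitin in SCNT and 0.66 for the interaction. The other Ube2e1 probe set gave 0.41 and 0.03 for amanitin in SCNT and fertilized embryos, 0.38 for the interaction and no change with stage in parthenogenetic embryos, so the SCNT amanitin direction of both genes turned with the probe set, while the fertilized difference of Ube2e3 was −0.41 on either set.

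Ube2e2, in contrast, was lower at the 2-cell stage in SCNT (−2.30, SE 0.22, adjusted p = 7.74e-12), parthenogenetic (−1.24) and fertilized embryos (−1.78, SE 0.21, adjusted p = 7.26e-10), and its untreated SCNT and fertilized 2-cell arrays, at 4.07 to 5.10, were below the overall median. Ube2w, which attaches ubiquitin to protein N termini, read 8.26, 8.97, 8.44 and 8.34 on SCNT 2-cell arrays, against 11.13, 11.13 and 11.27 on SCNT 1-cell arrays, without overlap. Its stage difference was −2.67 in SCNT, −2.11 in parthenogenetic and −2.31 in fertilized embryos (SE 0.16, 0.15 and 0.15, adjusted p = 4.39e-18, 1.58e-15 and 3.27e-17). On its 3 other passing probe sets these reached 0.01 in SCNT, 0.20 in parthenogenetic and −0.43 in fertilized embryos. With amanitin Ube2w was higher by 0.61 in SCNT and 2.01 in fertilized 2-cell embryos, an interaction of −1.40 (SE 0.21, adjusted p = 5.74e-07); the other sets ranged from −0.75 to 0.61 in SCNT, and the next brightest gave 0.48 in fertilized embryos with an adjusted p of 0.0506.

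The K48 chain builders, which mark proteins for the proteasome, were mixed. Ube2g1 read 10.84, 10.67, 10.61 and 10.65 on SCNT 2-cell arrays, against 12.30, 12.25 and 12.28 on SCNT 1-cell arrays. On fertilized 2-cell arrays it read 9.55, 9.45, 9.87 and 9.77, against 12.28, 11.97, 12 and 12.02 on 1-cell arrays. No stage groups overlapped; the differences were −1.59 in SCNT (SE 0.09, adjusted p = 4.36e-19), −1.07 in parthenogenetic (SE 0.08, adjusted p = 1.79e-14) and −2.41 in fertilized embryos (SE 0.08, adjusted p = 5.96e-26). With amanitin the 2-cell values were 11.93 to 12.06 in SCNT and 12.02 to 12.10 in fertilized embryos, higher than untreated by 1.30 and 2.39 (SE 0.08 in both, adjusted p = 1.17e-17 and 8.48e-26). Ube2g1 was higher in untreated SCNT than in fertilized 2-cell embryos by 1.03 (SE 0.08, adjusted p = 3.69e-13), but by −0.12 (adjusted p = 0.712) on its other probe set, where the stage change was −0.91 in SCNT, 0.47 in parthenogenetic and −0.80 in fertilized embryos.

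Ube2k, a builder of K48 chains with a ubiquitin-binding tail, was bright and differed most in amanitin-treated SCNT 2-cell embryos, at 12.89, 12.78, 12.87 and 12.88, against 12.54, 12.28, 12.01 and 11.93 untreated (0.67, SE 0.12, adjusted p = 2.71e-06) and against 11.40, 11.62, 11.30 and 11.31 in amanitin-treated SCNT 1-cell embryos (1.45, SE 0.12, adjusted p = 4.56e-14). In fertilized embryos the amanitin difference at the 2-cell stage was −0.05 and not called, and the interaction of 0.71 was called (SE 0.16, adjusted p = 0.000454). Its 2 other passing probe sets gave 2.32 and 2.67 in SCNT and 0.72 and 1.62 in fertilized embryos, and interactions of 0.70 and 1.95. The interaction was 0.32 (adjusted p = 0.143) with all 5 probe sets averaged, also those below the filter. Ube2g2, which works with ligases of the endoplasmic reticulum, was lower with amanitin by −0.39 in SCNT and −0.37 in fertilized 2-cell embryos (adjusted p = 0.0278 and 0.0382). Its other probe set gave 0.31 and 1.02 for amanitin in SCNT and fertilized embryos. The stage differences of Ube2g2 in untreated embryos were not called, at −0.01 in SCNT, −0.28 in parthenogenetic and −0.11 in fertilized embryos. On its other probe set they were −1.75, −2.23 and −1.61. Ube2r2, a partner of cullin-RING ligases, was called in SCNT 2-cell embryos with amanitin (0.98, SE 0.34, adjusted p = 0.0113), where its other probe set gave −1.80.

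The RAD6 enzymes Ube2a and Ube2b, which with their ligases ubiquitinate histone H2B and the sliding clamp PCNA, gave opposite readings on their probe sets. On the brighter probe set Ube2a read 8.74, 8.79, 8.47 and 8.69 in SCNT 2-cell embryos, against 11.12, 11 and 11.26 in SCNT 1-cell embryos, and 8.13, 7.98, 8.65 and 8.55 in fertilized 2-cell embryos, against 11.10, 10.88, 10.76 and 10.59 in fertilized 1-cell embryos. The differences were −2.46 in SCNT (SE 0.13, adjusted p = 4.15e-20), −0.90 in parthenogenetic and −2.51 in fertilized embryos (SE 0.12, adjusted p = 1.61e-21). On the other Ube2a probe set they were 2.07, 2.18 and 1.79. Amanitin at the 2-cell stage gave 2.37 in SCNT and 3.35 in fertilized embryos on the brighter set, and −2.23 and −1.10 on the other. The probe sets of Ube2b also parted: amanitin gave 1.06 in SCNT (SE 0.11, adjusted p = 5.92e-11) and 0.73 in fertilized 2-cell embryos (SE 0.11, adjusted p = 3.75e-07) on the brighter probe set, and −1.73 and −0.81 on the other passing one, and the SCNT stage change was −0.72 on the brighter and 1.23 on the other. For these genes a single direction cannot be given from these arrays.

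**Figure D5:**
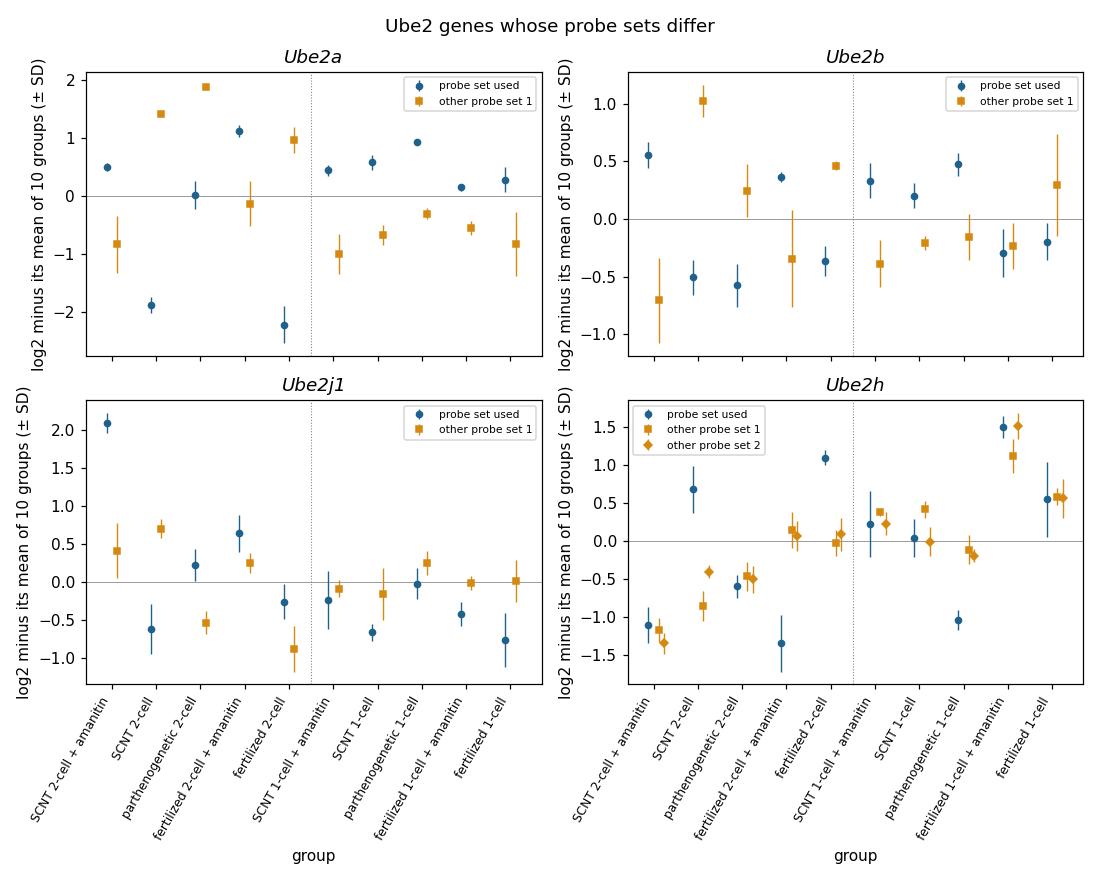
Group means of the passing probe sets of Ube2a, Ube2b, Ube2j1 and Ube2h over the 10 groups. The y axis is the group mean of a probe set minus that probe set's mean over the groups, in log2 units with SD; blue is the probe set used and orange the others. The 2 Ube2a probe sets lie on opposite sides of 0 in untreated SCNT and fertilized 2-cell embryos and in the untreated 1-cell groups.

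Of the 30 tested members, 21 had another passing probe set, and in 13 of them some comparison had differences of opposite sign that were both over 0.5 in size. Besides Ube2a and Ube2b these were Ube2d-ps, Ube2d3, Ube2e1, Ube2e3, Ube2f, Ube2h, Ube2j1, Ube2n, Ube2r2, Ube2t and Ube2w. Ube2c, Ube2cbp, Ube2d1, Ube2e2, Ube2o, Ube2q2, Ube2s, Ube2u and Ube2v2 had no other passing probe set. Ube2d2a, Ube2g1, Ube2g2, Ube2j2, Ube2k, Ube2q1, Ube2v1 and Ube2z had others that did not oppose by this measure, though for Ube2d2a, Ube2g1, Ube2g2, Ube2j2, Ube2k, Ube2q1 and Ube2z signs turned at a smaller size in at least 1 called comparison.

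The membrane-anchored E2s Ube2j1 and Ube2j2 serve degradation from the endoplasmic reticulum, and they moved apart. Ube2j2 read 10.63, 11.05, 10.72 and 10.47 on SCNT 2-cell arrays, against 7.77, 8.33 and 8.14 on SCNT 1-cell arrays, and 10.32, 10.29, 10.24 and 10.60 on fertilized 2-cell arrays, against 7.89, 8.44, 8.28 and 8.56 on fertilized 1-cell arrays. It rose without overlap by 2.64 in SCNT (SE 0.15, adjusted p = 1.14e-18), 0.71 in parthenogenetic (SE 0.14, adjusted p = 3.4e-05) and 2.07 in fertilized embryos (SE 0.14, adjusted p = 1.65e-16). With amanitin it was lower at the 2-cell stage, with differences of −2.79 in SCNT and −1.80 in fertilized embryos, and the interaction was −1.0 (SE 0.20, adjusted p = 5.9e-05). Its other probe set gave 1.11 in SCNT and 0.58 in fertilized embryos (adjusted p = 0.227) for the stage change.

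Ube2j1 read 10.40, 10.28, 10.10 and 10.35 on amanitin-treated SCNT 2-cell arrays, above every other array of the series, against 7.99, 7.48, 7.63 and 7.19 on untreated SCNT 2-cell arrays. The difference was 2.71 (SE 0.18, adjusted p = 4.03e-17); in fertilized 2-cell embryos it was 0.91 (SE 0.18, adjusted p = 1.93e-05), and the interaction was 1.81 (SE 0.25, adjusted p = 1.34e-07). On its other probe set the SCNT difference was −0.29 (adjusted p = 0.157) and the interaction −1.42 (adjusted p = 1.61e-05). The amanitin-treated SCNT 2-cell arrays were also those with the highest hybridization controls; their part in this value was not tested.

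Among E2s of ubiquitin-like modifiers, Ube2f, one of the E2s for NEDD8, was lower at the 2-cell stage by −2.08 in SCNT (SE 0.15, adjusted p = 4.27e-15), −1.40 in parthenogenetic and −1.77 in fertilized embryos (SE 0.14, adjusted p = 5.06e-14). With amanitin it read 8.78, 8.74, 8.68 and 8.65 in SCNT, against 6.88, 7.45, 6.99 and 7.01 untreated, and 8.81, 8.67, 8.92 and 8.65 in fertilized 2-cell embryos, against 7.18, 7.27, 7.23 and 7.18 untreated. The groups did not overlap, and the differences of 1.63 and 1.55 gave an interaction of 0.08 that was not called. On its 4 other passing probe sets the interaction ranged from 0.39 to 1.09, the fertilized amanitin difference from −0.28 to 1.55 and the parthenogenetic stage change from −1.56 to 0.89. Ube2z, which takes ubiquitin or FAT10 from the E1 enzyme Uba6, was higher at the 2-cell stage by 0.45 in SCNT, 0.65 in parthenogenetic and 0.85 in fertilized embryos (adjusted p = 0.0176, 0.000444 and 7.07e-06), and its amanitin differences at that stage, −0.17 and −0.30, were not called. Its other probe set gave −0.37 for the SCNT stage change, 1.02 for amanitin in SCNT and 1.48 for the interaction.

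Ube2t, the E2 of the Fanconi anaemia pathway for crosslink repair, was lowest with amanitin at the 2-cell stage. It read 7.08, 8.17, 5.96 and 7.19 on amanitin-treated, against 10.03, 9.74, 10.01 and 9.83 on untreated SCNT 2-cell arrays, and 7.12, 6.98, 7.86 and 7.52 on amanitin-treated, against 9.13, 9.44, 9.09 and 8.80 on untreated fertilized 2-cell arrays. The drug groups did not overlap; the differences were −2.80 in SCNT (SE 0.25, adjusted p = 6.77e-13) and −1.75 in fertilized embryos (SE 0.25, adjusted p = 9.16e-08). In amanitin the 2-cell arrays were below the 1-cell arrays by −3.56 in SCNT and −2.91 in fertilized embryos (SE 0.25 in both, adjusted p = 1.54e-15 and 2.11e-12), the largest falls among the members in both. A dim second probe set, with group means of 4.13 to 5.90, gave 0.53 and 1.06 there, neither called, and −0.64 (adjusted p = 0.35) for amanitin in SCNT 2-cell embryos. Without the drug the stage difference was −0.87 in SCNT, 0.39 in parthenogenetic (not called) and −1.61 in fertilized embryos, and on the second probe set it was 0.36, −0.83 and 1.41.

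Of the other E2s, Ube2o, a large enzyme that acts as E2 and E3 at once, read 7.96, 8.18, 8.40 and 8.21 on SCNT 2-cell arrays, against 7.20, 6.94 and 6.58 on SCNT 1-cell arrays, and 9.24, 9.11, 8.99 and 9.18 on fertilized 2-cell arrays, against 7.12, 6.68, 7.19 and 6.92 on fertilized 1-cell arrays. It rose without overlap by 1.28 in SCNT (SE 0.22, adjusted p = 3.94e-06), 0.90 in parthenogenetic and 2.15 in fertilized embryos (SE 0.21, adjusted p = 6.67e-12), and untreated SCNT embryos were below fertilized ones at the 2-cell stage by −0.94 (SE 0.21, adjusted p = 0.000413). With amanitin it was lower, with differences of −2.68 in SCNT and −2.48 in fertilized 2-cell embryos, with an interaction of −0.20 that was not called. Ube2h, a partner of the CTLH ligase, was lower with amanitin by −1.77 in SCNT and −2.44 in fertilized 2-cell embryos, but in fertilized embryos its next brightest probe set gave −0.02 (adjusted p = 0.915).

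Ube2q1 was lower at the 2-cell stage in SCNT (−0.49), parthenogenetic (−1.16) and fertilized embryos (−1.09), and its amanitin effect differed by origin with an interaction of −1.50 (SE 0.25, adjusted p = 6.04e-06). Its other probe set gave 1.57 in SCNT, −0.11 in parthenogenetic and 0.44 in fertilized embryos for the stage change, so its direction turned in SCNT and fertilized embryos, and −1.60 for the interaction. Ube2q2 read 6.63, 6.95, 6.99 and 6.86 on amanitin-treated, against 5.56, 6.09, 5.44 and 5.58 on untreated SCNT 2-cell arrays (1.19, SE 0.20, adjusted p = 1.36e-06), and its difference in fertilized 2-cell embryos was 0.61. Ube2u read 7.27, 7.25, 6.69 and 7.41 on amanitin-treated, against 5.34, 6.19, 5.60 and 5.45 on untreated SCNT 2-cell arrays (1.51, SE 0.25, adjusted p = 1.71e-06). In fertilized embryos its amanitin difference of 0.25 was not called. Ube2u was lower at the 2-cell stage in SCNT (−1.07), parthenogenetic (−1.77) and fertilized embryos (−1.29).

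Of the 2 members that are no E2 by their product, Ube2cbp has a single probe set and Ube2d-ps gave opposite readings. Ube2cbp was at 3.65 to 5.83 on SCNT 2-cell arrays, against 7.92 to 8.11 on SCNT 1-cell arrays, and at 3.77 to 5.58 on fertilized 2-cell arrays, against 7.86 to 8.77 on fertilized 1-cell arrays; the group means of 4.63 and 4.66 at the 2-cell stage were below the overall median. The differences were −3.40 in SCNT (SE 0.40, adjusted p = 1.05e-09), −2.06 in parthenogenetic and −3.51 in fertilized embryos (SE 0.37, adjusted p = 6.48e-11). With other constants they ran from −3.80 to −2.72 in SCNT and from −3.87 to −2.87 in fertilized embryos. The stage difference of Ube2d-ps was −0.72 in SCNT, −0.15 in parthenogenetic (not called) and −0.36 in fertilized embryos, and on its other probe set 0.79, 0.93 and 2.10.

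The difference between stage changes was tested directly as well. Between SCNT and fertilized embryos it was called for 9 members, 6 higher and 3 lower (background 19.1%, 8.64% higher and 10.4% lower). The largest were Ube2d1 at 1.91 (SE 0.37, adjusted p = 0.000187) and Ube2n at −1.13 (SE 0.19, adjusted p = 1.52e-05). Median centring gave 1 higher and 4 lower and the values as deposited 2 higher and 3 lower. The median over all genes was −0.05, and moved to −0.13 with centring and to 0.05 as deposited. Some other probe set had the opposite sign in 5 of 7 called members with another passing set. Among these was Ube2n, at 0.28 (adjusted p = 0.669) with its other probe set. Between parthenogenetic and fertilized embryos the difference between stage changes was called for 16 members, 7 higher and 9 lower (background 35.5%, 19.8% higher and 15.7% lower). Here some other set had the opposite sign in 3 of 10. The interaction was −1.68 for Ube2v1, −1.56 for Ube2v2 (SE 0.23, adjusted p = 5.37e-07), −1.26 for Ube2o and −0.67 for Ube2c. For Ube2j2 it was −1.36, and −0.39 (adjusted p = 0.658) with the next brightest probe set. These genes were named for large fertilized stage changes, which the interaction subtracts, so their shared sign is a description. The interaction was positive for Ube2g1 (1.34, SE 0.11, adjusted p = 3.17e-12) and Ube2d3 (1.10, SE 0.13, adjusted p = 3.22e-09), and for Ube2a it was 1.60 on the brighter probe set and 0.38 (adjusted p = 0.319) on the other.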

How the data were processed

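RNA extracted with a PicoPure kit and labelled with an Enzo kit, per the labels' protocols, was read on Affymetrix mouse arrays. The values deposited by the authors are linear intensities per probe set; the software and normalization behind them are not given in the sources used here. From them log2(value + 6.9) was taken, with the 20th percentile of all values as the constant, and arrays were quantile normalized. Genes were named through the platform annotation, which can be old: of the 45101 probe sets 34945 had 1 gene, 932 several and 9160 none, besides 64 control probe sets. The brightest probe set stood for a gene, and the gene was kept if that set was above the overall median on at least 4 arrays. limma 3.58.1 (lmFit, eBayes with trend) in R 4.3.3 was fitted to 10 groups at once (29 residual degrees of freedom), with 15 comparisons and 3 interactions, each adjusted over 14880 genes by Benjamini-Hochberg. The code was tested on simulated data. Array numbers limit the precision.

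The members, role classes, marker lists and pathway lists were chosen with earlier results of these data known. Named were up to 5 largest called differences in each direction per comparison and up to 4 members of each role class, brightest first; from pathway lists, up to 4 genes per comparison. The members shown beyond these were chosen after their values were seen. Replicate numbers were checked as pairs: deviations of same-numbered arrays correlated at −0.0491 to 0.0924, and in 0 comparisons did every pair exceed 0.1, so the numbers were not taken to pair samples. Alternatives changed the constant, filter, normalization, probe set rule, arrays fitted, trend, replicate block and arrays left out. Promoters are from RefSeq, GRCm38.p6.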

Additional observations from a re-analysis of the deposited data

Results flagged for a closer look

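Single arrays lay apart from the other 3 of their group in 20 of 270 sets of 4 arrays (30 genes in 9 groups); chance alone gives about 14, 1 in 20. Among fertilized 2-cell amanitin arrays these were Ube2c at 8.44 on replicate 3 (others 8.24 to 8.25). Among SCNT 2-cell amanitin arrays these were Ube2c at 8.14 on replicate 4 (others 8.45 to 8.51), Ube2h at 8.52 on replicate 3 (others 7.98 to 8.07) and Ube2z at 8.45 on replicate 1 (others 9.23 to 9.28). Among fertilized 1-cell arrays these were Ube2d1 at 7.19 on replicate 2 (others 6.74 to 6.79), Ube2e2 at 7.07 on replicate 2 (others 6.55 to 6.60), Ube2g1 at 12.28 on replicate 1 (others 11.97 to 12.02), Ube2u at 7.03 on replicate 3 (others 6.55 to 6.62) and Ube2z at 8.65 on replicate 3 (others 8.49 to 8.49). Among parthenogenetic 1-cell arrays these were Ube2d1 at 7.33 on replicate 2 (others 7.63 to 7.64) and Ube2f at 9.63 on replicate 4 (others 9.01 to 9.07). Among fertilized 1-cell amanitin arrays these were Ube2e1 at 10.72 on replicate 4 (others 10.76 to 10.76). Among SCNT 1-cell amanitin arrays these were Ube2e1 at 10.46 on replicate 1 (others 10.66 to 10.69) and Ube2t at 10.10 on replicate 4 (others 10.78 to 10.89). Among SCNT 2-cell arrays these were Ube2e2 at 4.07 on replicate 3 (others 4.78 to 4.79) and Ube2v1 at 9.62 on replicate 2 (others 10.04 to 10.05). Among parthenogenetic 2-cell arrays these were Ube2e3 at 10.46 on replicate 2 (others 10.74 to 10.80) and Ube2g1 at 11.28 on replicate 1 (others 11 to 11.04). Among fertilized 2-cell arrays these were Ube2n at 9.97 on replicate 4 (others 9.35 to 9.46) and Ube2u at 5.09 on replicate 4 (others 5.47 to 5.52). 

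The amanitin effect at the 2-cell stage differed between SCNT and fertilized embryos by the interaction test, SCNT minus fertilized in log2 units, for Ube2j1 (1.81), Ube2u (1.26), Ube2r2 (1.22), Ube2v2 (0.77), Ube2k (0.71), Ube2d1 (−5.48), Ube2s (−2.30), Ube2cbp (−1.76), Ube2v1 (−1.55) and Ube2q1 (−1.50). The 2-cell minus 1-cell change differed between SCNT and fertilized embryos, SCNT minus fertilized, for Ube2d1 (1.91), Ube2g1 (0.82), Ube2k (0.62), Ube2e1 (0.60), Ube2j2 (0.57), Ube2n (−1.13), Ube2o (−0.87) and Ube2b (−0.54). The same change differed between parthenogenetic and fertilized embryos, parthenogenetic minus fertilized, for Ube2t (2.00), Ube2a (1.60), Ube2cbp (1.45), Ube2s (1.38), Ube2g1 (1.34), Ube2v1 (−1.68), Ube2e3 (−1.61), Ube2v2 (−1.56), Ube2j2 (−1.36) and Ube2o (−1.26). For Ube2j1, Ube2b, Ube2n, Ube2t, Ube2g1 and Ube2k another probe set reversed at least 1 of these differences. The interaction calls of Ube2r2 (amanitin), Ube2cbp (parthenogenetic stage change) and Ube2o, Ube2j2, Ube2e1 and Ube2b (SCNT stage change) were lost when single libraries were left out.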

How the results depend on the processing

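Of 146 named differences, the 1168 values under other settings that keep the probe set held their direction throughout, with 47 no longer called; of 1370 values with 1 array left out, 74 were no longer called and 0 reversed. The probe set mattered most. With the next brightest one, an alternative chosen after seeing the data, 23 of 85 differences reversed. With all probe sets of a gene averaged, also those below the filter, 5 of 136 reversed. The cause was not tested. The number of arrays limits the precision, and dim probe sets near the overall median depend on the added constant.

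Counts of called Ube2 genes that moved by over 1.5 times were these. With median centring they were 8 for SCNT minus fertilized 2-cell embryos, 8 for SCNT minus fertilized 1-cell embryos with amanitin, 6 for amanitin in fertilized 1-cell embryos and 5 for the SCNT interaction of the stage change, which was also 5 with the values as deposited. With the mean of the probe sets they were 0 for SCNT minus fertilized 1-cell embryos, 5 for the same with amanitin, 1 for amanitin in fertilized 1-cell embryos and 3 for that interaction. With the next brightest probe set they were 2 for SCNT minus fertilized and 7 for parthenogenetic minus fertilized 1-cell embryos and 5 for that interaction. For SCNT minus fertilized 1-cell embryos leaving out 1 array gave 1 to 8 called genes, and for amanitin in fertilized 1-cell embryos 2 to 5.

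Reversed with the mean of the probe sets were Ube2n (−0.04) and Ube2b (−0.06) in SCNT minus fertilized 1-cell embryos, Ube2t (0.21) in parthenogenetic minus fertilized 1-cell embryos, Ube2b (0.30) in the SCNT interaction of the stage change and Ube2t (−0.12) in the parthenogenetic one. With the next brightest probe set the stage change reversed for Ube2a (2.07 in SCNT, 1.79 in fertilized) and Ube2e3 (−0.03 in SCNT), and with amanitin for Ube2t (0.53 in SCNT, 1.06 in fertilized) and Ube2b (−0.11 in fertilized). The amanitin effect at the 2-cell stage reversed for Ube2a (−2.23 in SCNT, −1.10 in fertilized), Ube2j1 (−0.29) and Ube2d-ps (−0.09), both in SCNT. Between origins it reversed Ube2g1 (−0.12, SCNT 2-cell), Ube2j2 (0.15, parthenogenetic 2-cell), Ube2n (−0.65, SCNT 1-cell; −0.10, parthenogenetic 1-cell), Ube2b (−0.50, SCNT 1-cell; −0.15 with amanitin), Ube2q1 (−0.48, SCNT 1-cell with amanitin) and Ube2t (1.77, parthenogenetic 1-cell). Interactions reversed for Ube2j1 (−1.42, amanitin), Ube2g1 (−0.11), Ube2n (0.28) and Ube2b (1.07), all 3 for the SCNT stage change, and Ube2t (−2.24, parthenogenetic stage change).

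With the replicate number as a block, 0 counts moved by over 1.5 times and 3 named calls were lost, namely Ube2b in SCNT minus fertilized 1-cell embryos (0.37, adjusted p = 0.0672), Ube2d1 in parthenogenetic minus fertilized 1-cell embryos (0.69, adjusted p = 0.0563) and Ube2j2 in the SCNT interaction of the stage change (0.55, adjusted p = 0.05); the numbers share only a label.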

Other observations

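The other genes of the ubiquitin pathway moved both ways too. Each was read on its brightest probe set only, and other probe sets and settings were not checked for these genes. Their counts stand beside a background of 60.8%, 49.2% and 60.1% of all tested genes called for the stage change in SCNT, parthenogenetic and fertilized embryos, and of 69.3% and 64.4% for amanitin in SCNT and fertilized 2-cell embryos. Of 18 listed E1 enzymes and modifiers 8 were tested: between the stages, SCNT embryos had 2 with a rise and 4 with a fall, parthenogenetic embryos 3 and 4, and fertilized embryos 2 and 5. Sae1, a subunit of the SUMO-activating enzyme, rose by 2.94 in SCNT (SE 0.16, adjusted p = 5.84e-19) and 2.67 in fertilized embryos (SE 0.15, adjusted p = 9.68e-19). Nae1, a subunit of the NEDD8-activating enzyme, and Uba6, the E1 that charges Ube2z, were lower, by −2.52 and −2.42 in SCNT and by −2.17 and −1.68 in fertilized embryos. With amanitin at the 2-cell stage 6 of the 8 were higher and 2 lower in SCNT, and 4 higher and 2 lower in fertilized embryos. Of 9 listed genes with an E2 fold outside the Ube2 name 8 were tested, and with amanitin 5 were higher and 3 lower in both origins; Atg3, the E2-like enzyme of autophagy, was lower by −2.63 in SCNT and −2.16 in fertilized embryos.

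All 17 listed genes of the anaphase-promoting complex and its regulators were tested. With amanitin at the 2-cell stage 4 were higher and 10 lower in SCNT (39.7% and 29.6% of all tested genes), and 9 higher and 6 lower in fertilized embryos (38.6% and 25.7%). Anapc7, a subunit of the complex, was lower by −4.54 in SCNT and −4.0 in fertilized embryos, and the activator Cdc20 by −3.54 and −3.03, as was the inhibitor Fbxo5 by −3.18 and −3.40. Fzr1 had higher group means with the drug, at 7.97 against 6.40 in SCNT and 8.15 against 6.60 in fertilized embryos. At the stage change 7 were higher and 7 lower in SCNT, 3 higher and 8 lower in parthenogenetic, and 5 higher and 8 lower in fertilized embryos. Of 33 listed RING and cullin partners 30 were tested, and between the stages 10 rose and 12 fell in SCNT, 5 and 11 in parthenogenetic, and 9 and 16 in fertilized embryos; the scaffold Cul3 rose by 4.14, 2.81 and 3.89. With amanitin 14 were higher and 12 lower in SCNT and 13 higher and 9 lower in fertilized 2-cell embryos.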
